A study of Mus musculus with 16 samples.

Results

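The 10 genes described here encode RNA-binding proteins that set which exons enter neuronal mRNAs: *Ptbp1* and *Ptbp2*, *Nova1* and *Nova2*, *Rbfox1*, *Rbfox2* and *Rbfox3*, *Srrm4*, and *Mbnl1* and *Mbnl2*. They were taken by symbol from a table of 46320 genes, and all 10 passed the filter on low counts, as did 19964 genes of the whole table. The counts came from mouse motoneurons enriched by p75NTR panning from lumbar spinal cords at embryonic day 13 and grown in microfluidic chambers, in which axons extend into a compartment of their own. All cultures received CNTF at 5 ng/ml in both compartments and BDNF at 20 ng/ml on the axonal side, without any other treatment. The 4 groups were +/+ somatodendritic, *Hnrnpr*-/- somatodendritic, +/+ axonal and *Hnrnpr*-/- axonal, with 4 libraries each. *Hnrnpr*-/- mice carry a germline CRISPR/Cas9 deletion of the first exons of *Hnrnpr* in every cell, and +/+ mice are wild type.

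Splicing regulators bind short motifs in a pre-mRNA and, depending on where they sit, favour or block the use of a nearby exon. *Ptbp1* binds pyrimidine-rich tracts and represses neuronal exons in progenitors and non-neuronal cells, and its fall during neuronal differentiation lets its paralogue *Ptbp2* rise. Nova, Rbfox and *Srrm4* proteins then promote the exon choices of mature neurons, whereas Mbnl proteins move many transcripts from fetal to adult isoforms and are also known to act on mRNA localization. Counts per gene measure the amount of these transcripts, not their isoforms or their splicing activity.

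The link between *Ptbp1* and *Ptbp2* runs through a short alternative exon that both genes hold, which is why its sequence is shown for each. *Ptbp1* protein favours skipping of this exon, which shifts the reading frame and exposes the transcript to nonsense-mediated decay. In the GRCm39 genome the exon has 34 bases in each gene, at chr10:79697848-79697881 on the plus strand in *Ptbp1* and at chr3:119518261-119518294 on the minus strand in *Ptbp2*. The lines give the 80 intron bases before it in lower case and the exon in capitals, 5′ to 3′.
*Ptbp1* (chr10:79697768-79697881, plus strand): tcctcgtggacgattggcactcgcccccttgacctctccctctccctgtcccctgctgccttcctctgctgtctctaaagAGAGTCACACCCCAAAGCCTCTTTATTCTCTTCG
*Ptbp2* (chr3:119518261-119518374, minus strand): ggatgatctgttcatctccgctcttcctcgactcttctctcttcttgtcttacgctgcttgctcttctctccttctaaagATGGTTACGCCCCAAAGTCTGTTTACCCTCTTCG
The exons share 26 of 34 bases (76.5%) at the same position. Of the 80 upstream bases, 59 in *Ptbp1* (73.8%) and 61 in *Ptbp2* (76.2%) are C or T, against a median of 53.8% before the 44 internal exons annotated for both genes. GENCODE lists 14 *Ptbp1* transcripts with the exon and 5 that skip it, and 9 and 5 for *Ptbp2*. Of those with the exon, 8 in *Ptbp1* and 4 in *Ptbp2* are annotated as coding, and 5 in each gene as targets of nonsense-mediated decay. Of those that skip it, 3 in *Ptbp1* and 0 in *Ptbp2* are annotated as coding, and 2 and 4 as decay targets, so annotated decay targets occur with and without the exon. The values below add all isoforms of a gene.

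Libraries held 22024923 to 34864151 counts. *Hnrnpr* was measured at 120.0 to 422 CPM (counts scaled by the library's TMM-adjusted total) in +/+ libraries and 0.545 to 1.16 CPM in *Hnrnpr*-/- libraries, as labelled. The summed CPM of 9 neuronal markers ranged from 6633 to 8159.7 CPM in +/+ somatodendritic and 5196 to 8297 CPM in *Hnrnpr*-/- somatodendritic libraries, against 545 to 2835 CPM and 359 to 4236 CPM in the axonal ones. For 8 fibroblast or meningeal markers the corresponding ranges were 72.3 to 713 CPM, 119.6 to 1323 CPM, 1120.3 to 10283 CPM and 1979 to 9425 CPM, and for 9 astrocyte or radial glia markers 1088 to 1537 CPM, 1058 to 2251 CPM, 3568 to 5997 CPM and 3239 to 5231 CPM. Most of the axonal fibroblast sum was *Acta2*, also a gene of smooth muscle, with means of 113 CPM on the somatodendritic and 4058 CPM on the axonal side of +/+ cultures, and 97.4 and 3736 CPM in *Hnrnpr*-/-. In *Hnrnpr*-/- 3 of the 8 had lower axonal means, *Col3a1* (326 to 226 CPM), *Dcn* (29.1 to 22.1 CPM) and *Lum* (4.24 to 2.81 CPM). Of the astrocyte or radial glia markers, *Fabp7* and *Vim* had the highest axonal means, 1823 and 1703 CPM in +/+ and 1522 and 1727 CPM in *Hnrnpr*-/-. All 9 had higher axonal means in +/+. In *Hnrnpr*-/-, *Gfap* (342 to 309 CPM) and *Hes5* (25.6 to 24.3 CPM) had lower ones and the rest of that list higher ones. Axonal replicate 3 stood apart in both genotypes, with the lowest neuronal sum of its group (545 CPM in +/+ and 359 CPM in *Hnrnpr*-/-) and the highest fibroblast sum (10283 and 9425 CPM). The 8 motoneuron markers summed to 17.0 to 33.8 CPM in +/+ and 20.1 to 26.4 CPM in *Hnrnpr*-/- somatodendritic libraries, and to 3.90 to 17.4 CPM and 2.85 to 11.3 CPM in axonal ones. Of these, *Chat* averaged 0.899 CPM in the +/+ somatodendritic group and *Mnx1* had 0 counts in 15 of 16 libraries, where up to 3 counts could be missed by counting error.

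*Ptbp1*, the repressor that marks progenitors and non-neuronal cells (chr10:79690266-79700269, plus strand, GRCm39), had the highest axonal level of the members per exon length. In +/+ libraries it measured 42.0, 40.0, 70.6 and 25.7 CPM in the 4 somatodendritic and 196, 142, 385 and 215 CPM in the 4 axonal samples, in order of replicate number. The *Hnrnpr*-/- values were 33.9, 53.6, 65.2 and 76.7 CPM and 133, 221, 431 and 255 CPM. Every axonal library of either genotype lay above every somatodendritic one, and replicate 3 was highest among the axonal libraries of each genotype. The rise was 5.26-fold in +/+ (log2 fold change 2.40 ± 0.41 (SE), edgeR adjusted p = 0.000299) and 4.53-fold in *Hnrnpr*-/- (log2 fold change 2.18 ± 0.41 (SE), edgeR adjusted p = 0.000619). Genes on the opposite strand share 1011 exon bases with *Ptbp1*, of which 437 lie in *Gm17134*, 295 in *E130317F20Rik* and 279 in *Plppr3*. *E130317F20Rik* had 3.94% as many counts as *Ptbp1* over all libraries, and *Gm17134* was not analysed here. *Plppr3* held more counts than *Ptbp1* in total and was lower on the axonal side, with means of 541 ± 101 CPM (SD, n = 4) in the +/+ somatodendritic and 163 ± 53.2 CPM in the +/+ axonal group. The libraries were made with a kit that does not mark strand and were counted in the reverse-strand setting, so reads from shared bases cannot be told apart by strand.

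*Ptbp2*, the neuronal paralogue that takes over part of *Ptbp1*'s targets (chr3:119512390-119578296, minus strand), showed the opposite order. In +/+ it stood at 146, 189.8, 199.5 and 169 CPM in somatodendritic and 75.8, 115, 35.6 and 44.8 CPM in axonal libraries. The *Hnrnpr*-/- values were 175, 202, 186 and 163 CPM and 66.8, 83.0, 30.5 and 51.7 CPM. No axonal library reached the lowest somatodendritic one of its genotype, and the SD was 52.8% of the mean among +/+ axonal libraries, against 13.6% among +/+ somatodendritic ones. *Ptbp2* fell 2.60-fold in +/+ axons (log2 fold change -1.38 ± 0.33 (SE), edgeR adjusted p = 0.00289) and 3.13-fold in *Hnrnpr*-/- axons (log2 fold change -1.65 ± 0.34 (SE), edgeR adjusted p = 0.00108).

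The pair can be read within each library as a ratio, which does not depend on how libraries are scaled. Per kilobase of exon, the ratio of *Ptbp2* to *Ptbp1* was 2.32, 3.18, 1.89 and 4.39 in +/+ somatodendritic libraries and 0.259, 0.542, 0.0619 and 0.140 in +/+ axonal libraries. It was 3.46, 2.53, 1.91 and 1.42 in *Hnrnpr*-/- somatodendritic and 0.336, 0.252, 0.0475 and 0.136 in *Hnrnpr*-/- axonal libraries. *Ptbp2* was thus the more abundant of the pair in all 8 somatodendritic libraries and *Ptbp1* in all 8 axonal ones. The lowest ratio of each genotype was that of axonal replicate 3. On the log2 scale the mean ratio changed from 1.48 ± 0.53 to -2.42 ± 1.33 (SD, n = 4) in +/+, a 15.0-fold shift, and by 14.5-fold in *Hnrnpr*-/-. The exact two-sided permutation p was 0.0286 in each genotype, the smallest that 4 against 4 libraries allow, and 0.0816 after adjustment over the 20 ratio tests, so no ratio passed the adjusted threshold of 0.05. Taken as pairs of the same replicate number, the *Hnrnpr*-/- ratio was lower on the axonal side in 4 of 4 pairs (exact two-sided sign-flip permutation p = 0.125, the smallest that 4 pairs allow). The same paired p applied to the Nova, Rbfox and Mbnl ratios in *Hnrnpr*-/-, so none of them passed as pairs even before adjustment.

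**Figure D1:**
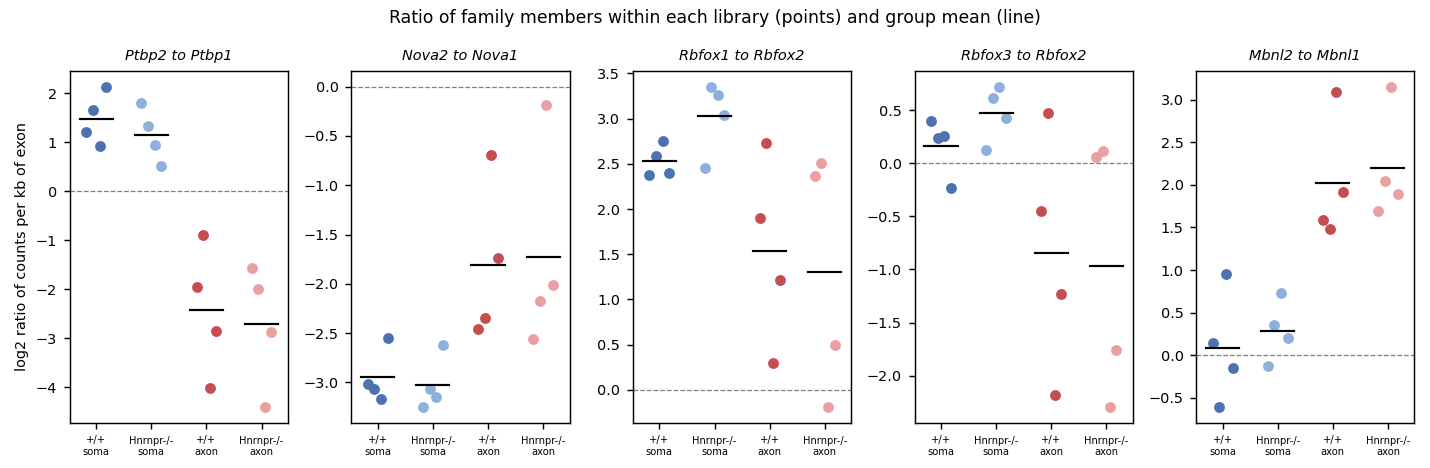
Log2 ratio per kilobase of exon within each library (y axis) for *Ptbp2* to *Ptbp1*, *Nova2* to *Nova1*, *Rbfox1* to *Rbfox2*, *Rbfox3* to *Rbfox2* and *Mbnl2* to *Mbnl1*, with 1 point per library and a bar at the mean of each of the 4 groups. The *Ptbp2* to *Ptbp1* ratio is above 0 in all 8 somatodendritic libraries and below 0 in all 8 axonal ones.

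*Nova1* and *Nova2* encode KH-domain proteins found mainly in neurons, where they control exons of synaptic and inhibitory receptor transcripts. *Nova1* (chr12:46744678-46866143, minus strand) had 263, 293, 274 and 209 CPM in +/+ somatodendritic and 59.7, 87.8, 17.9 and 31.8 CPM in +/+ axonal libraries. *Hnrnpr*-/- cultures gave 293, 256, 256 and 195 CPM and 88.0, 58.1, 9.60 and 27.4 CPM. Replicate 3 was lowest among the axonal libraries of each genotype, and no axonal value reached the somatodendritic range. With a 5.27-fold fall in +/+ (log2 fold change -2.40 ± 0.55 (SE), edgeR adjusted p = 0.00208) and 5.46-fold in *Hnrnpr*-/- (log2 fold change -2.45 ± 0.55 (SE), edgeR adjusted p = 0.00208), *Nova1* had the largest decrease of the 10 genes in both genotypes. *Nova2* (chr7:18659319-18699244, plus strand) was the steadier of the pair, with means of 42.8 ± 3.07 CPM (SD, n = 4) for the cell body side and 15.6 ± 4.43 CPM for the axonal side of +/+ cultures. It ranged from 36.9 to 40.5 CPM and from 8.72 to 19.2 CPM in the *Hnrnpr*-/- compartments. *Nova2* fell 2.74-fold (log2 fold change -1.46 ± 0.23 (SE), edgeR adjusted p = 0.000193) and 2.82-fold (log2 fold change -1.50 ± 0.24 (SE), edgeR adjusted p = 0.000199). The *Nova2* to *Nova1* ratio was 2.21-fold higher on the axonal side in +/+ and 2.45-fold in *Hnrnpr*-/- (exact permutation p = 0.0286 each, adjusted 0.0816).

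The 3 Rbfox genes encode proteins with nearly the same RNA recognition motif. *Rbfox1* and *Rbfox3* are largely neuronal, *Rbfox3* being the NeuN antigen used to stain neuronal nuclei, whereas *Rbfox2* is also expressed in many other cell types. *Rbfox1* (chr16:5702566-7230344, plus strand) had 213, 262, 256 and 267 CPM in +/+ somatodendritic and 63.0, 83.0, 21.4 and 83.0 CPM in +/+ axonal libraries, and 242, 294, 265 and 272 CPM and 117, 72.9, 13.4 and 26.3 CPM in *Hnrnpr*-/-. *Rbfox3* (chr11:118380586-118802423, minus strand) went from 155, 148, 131 and 124 CPM to 35.6, 49.9, 11.05 and 43.8 CPM in +/+, and from 138, 127, 131 and 128 CPM to 67.8, 39.9, 9.003 and 15.8 CPM in *Hnrnpr*-/-. Both genes had narrow somatodendritic groups and wide axonal ones that did not meet them, with replicate 3 at the bottom in each genotype and *Hnrnpr*-/- replicate 1 at the top of all 8 axonal libraries. *Rbfox1* fell 3.99-fold in +/+ (log2 fold change -1.99 ± 0.52 (SE), edgeR adjusted p = 0.00489) and 4.69-fold in *Hnrnpr*-/- (log2 fold change -2.23 ± 0.53 (SE), edgeR adjusted p = 0.00287). *Rbfox3* fell 3.98-fold (log2 fold change -1.99 ± 0.51 (SE), edgeR adjusted p = 0.00427) and 3.95-fold (log2 fold change -1.98 ± 0.51 (SE), edgeR adjusted p = 0.00487). Without axonal replicate 1 of *Hnrnpr*-/- the decreases there were larger, at log2 fold changes of -2.85 for *Rbfox1* and -2.61 for *Rbfox3*.

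*Rbfox2* (chr15:76963190-77193058, minus strand) did not share the low point of replicate 3. Its values were 113, 121, 106 and 139.7 CPM and 46.6, 34.5, 48.2 and 98.6 CPM in the +/+ compartments and 122, 79.6, 76.2 and 91.5 CPM and 62.4, 35.4, 42.4 and 51.4 CPM in the *Hnrnpr*-/- compartments. The axonal libraries were again below the somatodendritic ones of the same genotype, with +/+ axonal replicate 4 coming closest. The fall was 2.10-fold in +/+ (log2 fold change -1.07 ± 0.28 (SE), edgeR adjusted p = 0.00488) and 1.93-fold in *Hnrnpr*-/- (log2 fold change -0.95 ± 0.28 (SE), edgeR adjusted p = 0.0108), the smallest among the 7 members that fell. The call in *Hnrnpr*-/- was lost without somatodendritic replicate 1, where the log2 fold change was -0.74 and the edgeR adjusted p 0.0535. The ratios of *Rbfox1* and *Rbfox3* to *Rbfox2* were 1.99-fold and 2.01-fold lower on the axonal side in +/+, which the spread between libraries did not separate (exact permutation p = 0.114 and 0.2). The *Hnrnpr*-/- ratios were 3.32-fold and 2.71-fold lower (exact permutation p = 0.0571 and 0.0286).

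*Srrm4*, also called nSR100, promotes the inclusion of very short neuronal exons (chr5:116577325-116730620, minus strand). It was the least abundant member per exon length, with 20.7, 23.6, 17.9 and 21.7 CPM in +/+ somatodendritic and 5.93, 8.55, 3.28 and 4.77 CPM in +/+ axonal libraries, and 22.3, 20.2, 17.8 and 17.0 CPM and 10.8, 5.96, 3.18 and 2.39 CPM in *Hnrnpr*-/-. All 8 axonal libraries lay below all 8 somatodendritic ones. *Srrm4* fell 3.72-fold in +/+ (log2 fold change -1.90 ± 0.39 (SE), edgeR adjusted p = 0.00107) and 3.46-fold in *Hnrnpr*-/- (log2 fold change -1.79 ± 0.39 (SE), edgeR adjusted p = 0.00170). Its antisense gene *Srrm4os*, which overlaps 126 exon bases, had 12.6% as many counts over all libraries. The members other than *Ptbp1* and *Srrm4* share 0 to 609 GENCODE exon bases with genes on the opposite strand, the most in *Mbnl2*. There 304 lie in *Gm26679*, which had 2.65% as many counts, and 305 in *Gm62329*, which was not analysed here. *LOC118568205*, a counted gene within the span of *Rbfox2* on the opposite strand, had 11.9% as many counts as *Rbfox2*. Its means were 18.6 CPM in the +/+ somatodendritic and 3.26 CPM in the +/+ axonal group, and its shared exon bases were not measured.

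*Mbnl1* and *Mbnl2* encode the zinc finger proteins that are sequestered by expanded repeat RNA in myotonic dystrophy, *Mbnl2* being the main form in the brain. *Mbnl2* (chr14:120513077-120669110, plus strand) rose like *Ptbp1*, from 23.3, 14.04, 35.7 and 18.4 CPM to 79.97, 113, 219.9 and 141 CPM in +/+ and from 20.996, 23.6, 36.7 and 23.3 CPM to 94.4, 91.7, 219 and 118 CPM in *Hnrnpr*-/-. Replicate 3 was highest in all 4 groups, and no somatodendritic library reached an axonal one. The rise was 6.05-fold in +/+ (log2 fold change 2.60 ± 0.38 (SE), edgeR adjusted p = 0.000106) and 5.01-fold in *Hnrnpr*-/- (log2 fold change 2.32 ± 0.38 (SE), edgeR adjusted p = 0.000246), the largest increase of the 10 genes in each genotype.

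*Mbnl1* (chr3:60380209-60537171, plus strand) changed least. It had 33.4, 33.9, 29.2 and 32.2 CPM in +/+ somatodendritic and 42.1, 64.0, 41.0 and 59.3 CPM in +/+ axonal libraries. *Hnrnpr*-/- cultures gave 36.5, 29.3, 35.2 and 32.0 CPM and 46.3, 35.2, 39.1 and 50.5 CPM. The +/+ groups did not overlap, whereas in *Hnrnpr*-/- the lowest axonal library lay below the highest somatodendritic one. *Mbnl1* rose 1.603-fold in +/+ (log2 fold change 0.68 ± 0.17 (SE), edgeR adjusted p = 0.00348). In *Hnrnpr*-/- the difference missed the threshold (log2 fold change 0.36 ± 0.17 (SE), edgeR adjusted p = 0.0818, 95% interval 0.0022 to 0.72). It passed there with library totals as the only scaling (log2 fold change 0.49, edgeR adjusted p = 0.0251), when a gene needed 10 or more counts in each library of some group (0.42, adjusted p = 0.0481) and without +/+ axonal replicate 3 (0.40, adjusted p = 0.0441). The *Mbnl2* to *Mbnl1* ratio per kilobase was 1.11, 0.657, 1.94 and 0.904 in +/+ somatodendritic and 3.01, 2.80, 8.51 and 3.77 in +/+ axonal libraries, a 3.81-fold higher mean on the axonal side, and 3.75-fold higher in *Hnrnpr*-/- (exact permutation p = 0.0286 each, adjusted 0.0816).

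**Figure D2:**
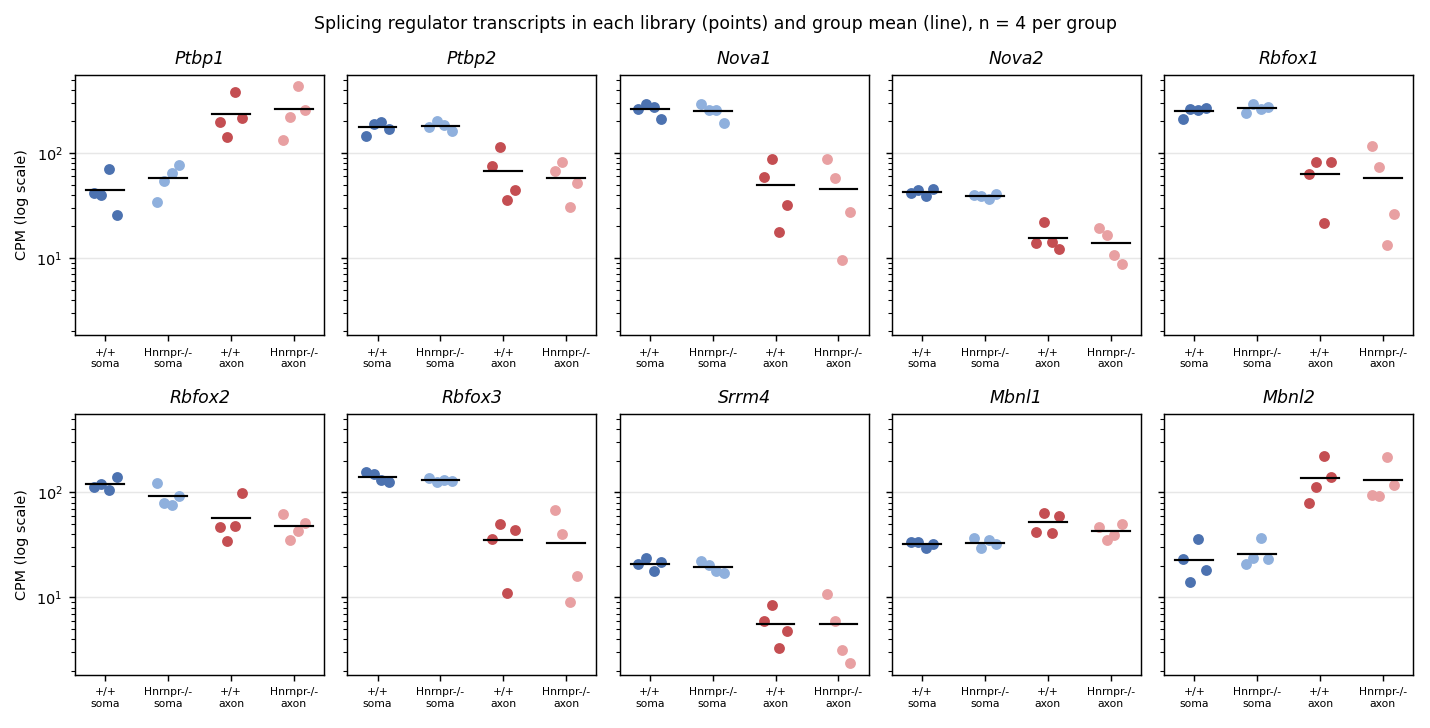
CPM of each of the 10 genes in each of the 16 libraries, on a log axis, with 1 point per library in order of replicate number from left to right and a bar at the mean of each group. *Ptbp1* and *Mbnl2* lie higher in all 8 axonal than in all 8 somatodendritic libraries, and the 7 genes that fell lie lower in the axonal libraries of each genotype.

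In the +/+ comparison of axonal with somatodendritic RNA, 3 of the 10 members were called higher and 7 lower, which leaves 0 without a call. Of the 19964 genes tested, 30.1% were called higher and 27.4% lower in the same comparison. In *Hnrnpr*-/-, 2 members were higher (*Ptbp1* and *Mbnl2*) and 7 lower, against 27.5% and 26.8% of all genes. The median log2 fold change of the members was -1.42 in +/+ and -1.57 in *Hnrnpr*-/-, beside 0.072 and -0.0028 over all genes tested. Libraries of the compartments did not overlap for 10 members in +/+, where this held for 52.4% of all genes, and for 9 in *Hnrnpr*-/-, where it held for 51.4%. Both comparisons use libraries of their own, but the spread in the model was estimated over all 16.

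**Figure D3:**
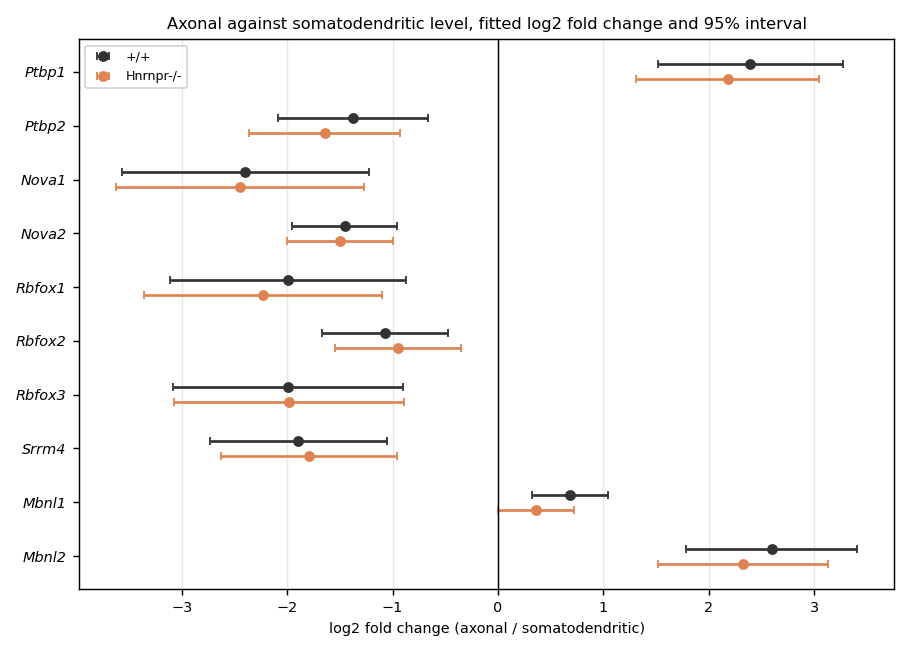
Fitted log2 fold change of axonal against somatodendritic level (x axis) for each of the 10 genes, as a point with its 95% interval, in +/+ and *Hnrnpr*-/- cultures. *Ptbp1* and *Mbnl2* lie more than 2 log2 units above 0, 7 genes lie below 0, and *Mbnl1* lies nearest to 0 among the genes that were higher.

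The sums of the neuronal, fibroblast and astrocyte markers differed between compartments without overlap in both genotypes, as did most members, and their part in these differences was not tested. Among the axonal libraries, replicate 3 of *Hnrnpr*-/- had the lowest *Ptbp2*, *Nova1*, *Rbfox1* and *Rbfox3* and the highest *Ptbp1* of all 8, while replicate 1 of *Hnrnpr*-/-, with the highest neuronal marker sum (4236 CPM), had the highest *Nova1*, *Rbfox1*, *Rbfox3* and *Srrm4* and the lowest *Ptbp1*. Without axonal replicate 3 of both genotypes, a setting added after the data were seen, 10 members in +/+ (3 higher, 7 lower) and 9 in *Hnrnpr*-/- (2 higher, 7 lower) were still called, with log2 fold changes of 2.03 for *Ptbp1*, -2.12 for *Nova1* and 2.26 for *Mbnl2* in +/+. The sum of 6 proliferation markers ranged from 117 to 181 CPM and 145 to 200.2 CPM in the +/+ and *Hnrnpr*-/- somatodendritic libraries, and from 265 to 1117 CPM and 156 to 1396 CPM in the axonal ones, overlapping in *Hnrnpr*-/-. The oligodendroglia and microglia lists overlapped between the compartments in both genotypes. The 8 oligodendroglia or Schwann markers summed to 225 to 890.4 CPM somatodendritic and 369 to 1359.8 CPM axonal in +/+, and 319 to 1076 CPM and 331 to 1868 CPM in *Hnrnpr*-/-. The 7 microglia markers summed to 9.15 to 31.3 CPM somatodendritic and 12.2 to 76.6 CPM axonal in +/+, and 7.53 to 87.6 CPM and 19.6 to 204 CPM in *Hnrnpr*-/-. A sum of 6 nuclear RNAs overlapped in +/+ (1090.4 to 1419 CPM and 629 to 2705 CPM) and was lower in all axonal libraries of *Hnrnpr*-/- (1089.6 to 1735 CPM and 631 to 967 CPM). Its genes did not move together. In *Hnrnpr*-/-, axonal means were lower for *Meg3* (508 to 113 CPM), *Snhg11* (463 to 77.7 CPM), *Kcnq1ot1* and *Miat*. They were higher for *Malat1* (295 to 494 CPM) and *Neat1* (8.39 to 27.4 CPM). In +/+, *Malat1* (226 to 1085 CPM), *Neat1* and *Kcnq1ot1* had higher axonal means, and *Meg3*, *Snhg11* and *Miat* lower ones. All 9 neuronal, 8 fibroblast, 9 astrocyte and 6 proliferation markers had counts in every group. In bulk RNA, fewer cells of a type and less RNA per cell cannot be told apart. The axonal cDNA was also made in a larger reaction volume and with more PCR cycles than the somatodendritic cDNA, which cannot be told apart from the compartment. With library totals in place of TMM factors the median of all genes moved to 0.22 in +/+ and 0.12 in *Hnrnpr*-/-, and each member kept its direction.

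Levels of different genes were compared per kilobase of the exon length given in the deposited table. In +/+ somatodendritic libraries the order of mean CPM per kilobase was *Ptbp2* (37.9), *Nova1* (37.5), *Rbfox1* (28.0), *Ptbp1* (14.3), *Rbfox3* (5.45), *Rbfox2* (4.87), *Nova2* (4.83), *Mbnl2* (4.78), *Mbnl1* (4.25) and *Srrm4* (2.55). *Ptbp2* and *Nova1* did not differ beyond their ranges, nor did any neighbours from *Rbfox3* to *Mbnl1*. In +/+ axonal libraries the order was *Ptbp1* (75.5), *Mbnl2* (29.0), *Ptbp2* (14.6), *Nova1* (7.12), *Rbfox1* (7.03), *Mbnl1* (6.81), *Rbfox2* (2.31), *Nova2* (1.76), *Rbfox3* (1.37) and *Srrm4* (0.685). There only *Mbnl1* and *Rbfox2* were neighbours whose ranges did not meet. The first 4 places in *Hnrnpr*-/- were the same as in +/+ within each compartment, and *Srrm4* was last. The order depends on the length chosen: *Rbfox2* has 24610 bases of summed exons but 2218 in its canonical GENCODE transcript, and with the latter it stood at 54.0 CPM per kilobase in +/+ somatodendritic libraries, next to *Rbfox1* at 56.7 and *Ptbp2* at 46.6.

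Each member varied more among axonal than among somatodendritic libraries of the same genotype. Over all genes tested the common dispersion was likewise higher, at 0.302 among axonal and 0.0535 among somatodendritic libraries. Over the 10 members the coefficient of variation was 6.61% to 42.2% in +/+ somatodendritic, 3.91% to 31.8% in *Hnrnpr*-/- somatodendritic, 22.8% to 62.9% in +/+ axonal and 16.1% to 82.1% in *Hnrnpr*-/- axonal libraries. *Ptbp1* and *Mbnl2*, the genes that rose most, were also the most variable members among somatodendritic libraries of each genotype.

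Loss of hnRNP R left the 10 genes without a called change in either compartment. In the somatodendritic compartment, 0 members passed the adjusted threshold in edgeR, 0 had an unadjusted p under 0.05 and 0 passed in DESeq2. In edgeR, 0.00501% of all genes tested (*Hnrnpr* itself) passed the adjusted and 0.601% the unadjusted threshold. The fitted log2 fold changes of *Hnrnpr*-/- against +/+ ran from -0.37 ± 0.28 (SE) for *Rbfox2* to 0.36 ± 0.39 for *Ptbp1*, with 5 above and 5 below 0. In axons, again 0 members passed the adjusted threshold in edgeR, 0 the unadjusted one and 0 passed in DESeq2, beside 0.01% and 3.88% of all genes. The axonal values ran from -0.27 ± 0.17 for *Mbnl1* to 0.15 ± 0.39 for *Ptbp1*, and 9 of 10 lay below 0, with a median of -0.12 beside 0.019 for all genes. Libraries of the genotypes overlapped for every member, so 0 members were separate in either compartment, where 1.58% of all genes were in the somatodendritic and 0.606% in the axonal comparison.

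The intervals show what sizes the model left possible. The spread of each gene was estimated over all 16 libraries, although the common dispersion was 0.302 among axonal and 0.0535 among somatodendritic libraries. The widths therefore do not describe the spread of a single compartment. A fit of only the groups compared also called 0 members in either compartment. For *Mbnl1*, with the narrowest 95% interval of the members in each compartment, it was -0.31 to 0.41 in the somatodendritic and -0.63 to 0.087 in the axonal compartment on the log2 scale. For *Nova2* it was -0.63 to 0.35 and -0.67 to 0.31. *Nova1* had the widest axonal interval, -1.22 to 1.01, which holds a 2-fold difference in either direction. For *Ptbp1* it was -0.47 to 1.199 and -0.68 to 0.98, and for *Mbnl2* -0.58 to 0.96 and -0.85 to 0.68.

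**Figure D4:**
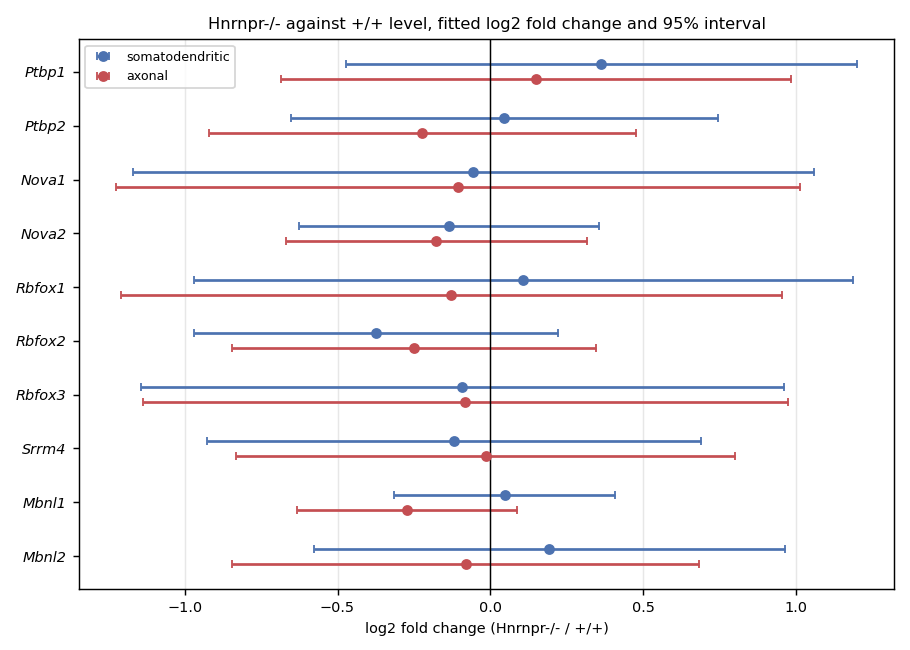
Fitted log2 fold change of *Hnrnpr*-/- against +/+ (x axis) for each of the 10 genes, as a point with its 95% interval, in the somatodendritic and the axonal compartment. All 20 intervals include 0, and those of *Mbnl1* are the narrowest.

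The difference of the genotype effect between compartments was tested as an interaction, in which 0 members passed the adjusted threshold in edgeR, 0 the unadjusted one and 0 passed in DESeq2, beside 0% and 1.33% of all genes. *Mbnl1* had the smallest p of the members, at -0.32 ± 0.24 (SE) on the log2 scale, with an edgeR adjusted p of 1.00. The call of *Mbnl1* in +/+ and its absence in *Hnrnpr*-/- were therefore not shown to differ. The within-family ratios gave exact permutation p values from 0.0857 to 0.886 between genotypes, the smallest for *Rbfox1* to *Rbfox2* in the somatodendritic compartment, which was 1.42-fold higher in *Hnrnpr*-/- (adjusted 0.190).

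Other regulators of alternative splicing were read from the same model as a list of 23 genes, of which 22 were tested and *Esrp1* did not pass the filter. In +/+, 6 were higher and 12 lower on the axonal side, beside 30.1% and 27.4% of all genes tested, with a median log2 fold change of -0.41 against 0.072 over all genes. The largest increases were those of *Mbnl3*, the third muscleblind gene (11.6-fold, log2 fold change 3.53 ± 0.78 (SE), edgeR adjusted p = 0.00164), *Esrp2*, an epithelial regulator (3.55-fold, log2 fold change 1.83 ± 0.56 (SE), edgeR adjusted p = 0.0115), and *Rbm24*, known from muscle (2.13-fold, log2 fold change 1.09 ± 0.31 (SE), edgeR adjusted p = 0.00748). These levels were low, with somatodendritic and axonal means of 0.593 and 6.86 CPM for *Mbnl3*, 0.460 and 1.64 CPM for *Esrp2* and 4.39 and 9.37 CPM for *Rbm24*. The largest decreases were those of *Elavl2*, a neuronal RNA-binding protein (6.11-fold, log2 fold change -2.61 ± 0.64 (SE), edgeR adjusted p = 0.00321), *Srrm3*, the paralogue of *Srrm4* (4.11-fold, log2 fold change -2.04 ± 0.43 (SE), edgeR adjusted p = 0.00116), and *Celf6* (3.66-fold, log2 fold change -1.87 ± 0.68 (SE), edgeR adjusted p = 0.0279). The call of *Celf6* was lost without +/+ somatodendritic replicate 1 or 2 or +/+ axonal replicate 1 or 3, at log2 fold changes of -1.92 to -1.49 (edgeR adjusted p = 0.0502 to 0.0697), and that of *Esrp2* without axonal replicate 3 of both genotypes (1.31, edgeR adjusted p = 0.0529). Of these genes, 4 were higher and 10 lower in *Hnrnpr*-/-, beside 27.5% and 26.8% of all genes. Between genotypes 0 passed the adjusted threshold in edgeR or DESeq2 in either compartment, and *Mbnl3* in axons was the 1 gene with an unadjusted p under 0.05, chosen here after its values were seen. Its axonal levels were 2.28, 18.1, 5.72 and 1.28 CPM in +/+ and 1.57, 1.61, 4.26 and 1.62 CPM in *Hnrnpr*-/-, which overlap, and +/+ replicate 2 stood far above the rest. Without that library the log2 fold change of *Mbnl3* was 2.38 between the +/+ compartments, still past the threshold, and -0.45 between genotypes in axons.

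Known targets of these regulators formed a list of 24 genes, all tested, and their counts again describe transcript amounts and not splicing. In +/+, 1 was higher and 19 lower on the axonal side, beside 30.1% and 27.4% of all genes tested, with a median log2 fold change of -1.46 against 0.072 over all genes. The increase was that of *Rest*, a repressor of neuronal genes whose splicing *Srrm4* controls, which went from 9.71 to 47.1 CPM (log2 fold change 2.28 ± 0.26 (SE), edgeR adjusted p = 2.86e-05). The largest decreases were those of *Unc13a*, which primes synaptic vesicles (11.7-fold, log2 fold change -3.55 ± 0.51 (SE), edgeR adjusted p = 9.59e-05), *Glra2*, a glycine receptor subunit (10.5-fold, log2 fold change -3.39 ± 0.76 (SE), edgeR adjusted p = 0.00175), and *Gabbr1*, a GABA-B receptor subunit (9.71-fold, log2 fold change -3.28 ± 0.53 (SE), edgeR adjusted p = 0.000191). Of the targets, 2 were higher (*Rest* and *Bak1*) and 19 lower in *Hnrnpr*-/-, beside 27.5% and 26.8% of all genes. Between genotypes 0 targets passed the adjusted threshold in edgeR or DESeq2 in either compartment, and 0 had an unadjusted p under 0.05. *Elavl3* and *Elavl4* in the first list and *Snap25* in the second are also among the 9 neuronal markers.

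For each member, the genes with the most similar pattern were found as the smallest root mean square difference of centred log2 CPM over the 16 libraries, among 19963 genes. *Mbnl1* was nearest to *Gm51716* (0.119) and *Herpud2* (0.148), *Rbfox3* to *Pcdha6* (0.140) and *Pcdha7* (0.144), *Nova2* to *Gsk3b* (0.143) and *Sms* (0.187), *Srrm4* to *Nexmif* (0.150) and *Dgke* (0.162) and *Ptbp2* to *Wasf1* (0.155) and *Elmo1* (0.187). *Nova1* was nearest to *Atcay* (0.183) and *Pcdha1* (0.185), *Rbfox1* to *Atl1* (0.173) and *Atp1b1* (0.187) and *Rbfox2* to *Tatdn2* (0.182) and *Gm30873* (0.191). *Ptbp1*, with *Tcf7l1* (0.197) and *Rhbdf1* (0.227), and *Mbnl2*, with *Ier5* (0.222) and *Cnn3* (0.223), had the most distant nearest genes. Among the members themselves, *Rbfox1* and *Rbfox3* were closest (0.194), followed by *Nova2* and *Srrm4* (0.275), and *Ptbp1* and *Mbnl2* were closest to each other (0.365). The genes share compartment and library, so these distances describe a common pattern over the same 16 libraries and carry no test.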

How the data were processed

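RNA from 16 libraries was measured by SMART-Seq cDNA sequencing. The authors deposited expected counts per gene, that is featureCounts 1.6.4 counts on exons from STAR 2.7.2b alignments to GRCm39 (RefSeq genes), in which reads with several alignments or genes were divided into fractions, with no normalization. The table also gave an exon length per gene. Here counts were rounded, filtered by edgeR's filterByExpr (19964 of 46320 genes), scaled by TMM factors and fitted by edgeR 4.0.16 (R 4.3.3, limma 3.58.1) with a mean per group over all 16 libraries. Quasi-likelihood F tests were two-sided, adjusted by the Benjamini-Hochberg method across the tested genes, at a threshold of 0.05. DESeq2 1.42.0 was an alternative, as were other scalings, filters, blocks and leaving out each library. Columns were matched to samples by title. Totals of 22024923 to 34864151 counts per library set the precision, and intervals cover the spread between libraries. The study describes the libraries of a group as biological replicates, and p values measure the spread between them. The script was tested on simulated counts before use.

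CPM used TMM-scaled totals. Ratios within families added 0.5 counts to each gene and used exact permutation over 70 unpaired assignments, with exact sign flips over same-numbered pairs as an alternative chosen after seeing the data. Positions and the exon sequences came from GENCODE vM39 and the GRCm39 genome, the build of the counts. The members, the lists and the alternatives were chosen with earlier results of these data known. The text names all 10 members, up to 3 genes a direction of each list with the largest called change in +/+, and the 2 nearest genes of each member. Libraries with the same replicate number deviated together between the *Hnrnpr*-/- compartments (correlation of deviations 0.169 to 0.577, each above 0.1), so these numbers were taken to pair the libraries. In +/+ the lowest was 0.083, so there they were not. The fits and ratio tests reported as main values had no block, and blocked fits were alternatives.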

Additional observations from a re-analysis of the deposited data

Results flagged for a closer look

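In the group of 4 *Hnrnpr*-/- somatodendritic libraries, *Mbnl2* in replicate 3 (36.7 CPM) stood apart from the other 3, which lay between 20.996 and 23.6 CPM. The gap to its neighbour was 0.837 of the group's range, above the 95% critical value of Dixon's test. Of 40 groups of 4 checked in this way, 1 was picked out, and chance alone picks out about 1 in 20. Replicate 3 also had the highest *Mbnl2* of the +/+ somatodendritic libraries (35.7 CPM) and of both axonal groups. Its sum of fibroblast or meningeal markers was 1304 CPM in the *Hnrnpr*-/- somatodendritic group, where the others had 119.6, 219 and 1323 CPM, and its part in the *Mbnl2* value was not tested.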

How the results depend on the processing

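Over 27 alternatives, all 270 values of the 10 members in the +/+ compartment comparison kept their direction and their call (10 of 10 called each time, highest edgeR or DESeq2 adjusted p 0.0218). In *Hnrnpr*-/-, 266 of 270 did, and the number called ran from 8 to 10. The exceptions were *Rbfox2* without somatodendritic replicate 1 and *Mbnl1* under 3 settings, whose values stand in the report, and the cause was not tested. With the replicate number as a block, or the culture as a block, 10 members were called in +/+, 9 in *Hnrnpr*-/- and 0 in the interaction. Between genotypes 0 were called with the replicate number as a block, and the culture block, nested within genotype, was not run there. No call of a member changed in the blocked fits that were run. In +/+, where same-numbered libraries were not taken as paired, each of the 4 somatodendritic libraries still correlated best with the axonal library of its own number. Between genotypes 0 members were called under any of 26 alternatives, while small fold changes crossed 0 when single libraries were left out, in 4 of 160 somatodendritic and 24 of 160 axonal values. The log2 fold changes so obtained ran over -0.022 to 0.12 for *Ptbp2*, -0.14 to 0.046 for *Nova1* and -0.017 to 0.50 for *Mbnl2* in the somatodendritic compartment. In axons they ran over -0.20 to 0.51 for *Ptbp1*, -0.45 to 0.16 for *Ptbp2*, -0.64 to 0.33 for *Nova1*, -0.38 to 0.040 for *Nova2*, -0.74 to 0.21 for *Rbfox1*, -0.43 to 0.16 for *Rbfox2*, -0.70 to 0.24 for *Rbfox3*, -0.55 to 0.26 for *Srrm4* and -0.44 to 0.25 for *Mbnl2*. *Srrm4* in axons was also at 0.0086 with no filter on low counts. For the log2 ratios, pairing by replicate number kept each mean difference but took the exact p from 0.0286 to 0.125 for *Ptbp2* to *Ptbp1* (-3.91 in +/+, -3.85 in *Hnrnpr*-/-), *Nova2* to *Nova1* (1.14 and 1.29), *Mbnl2* to *Mbnl1* (1.93 and 1.91) and, in *Hnrnpr*-/-, *Rbfox3* to *Rbfox2* (-1.44), and 4 pairs cannot give less. All 40 group levels under RLE size factors stayed within the spread between libraries. All 200 ratio values under settings without the pairing counted as unchanged. Those with a library left out stayed within the spread between libraries. Those with 1 count added or with fractional counts kept their direction and their side of 0.05 in the exact permutation test. Over all genes, DESeq2 called 5 genes between genotypes in axons where edgeR called 2. With 4 libraries a group, genotype differences inside the 95% intervals given in the report are not excluded, and no ratio passed the adjusted threshold.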
